A study of Mus musculus with 24 samples.

Results

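Trimethylation of histone H3 at lysine 4 (H3K4me3) was compared between wild-type (WT) and Prrx1-deleted (SG) wound-healing fibroblasts of the mouse. The comparison rests on 2 of the 24 samples of the study, a WT list of 16961 broad H3K4me3 regions and an SG list of 19641, out of 136989 H3K4me3 regions in the whole series. Fibroblasts had been taken from dorsal skin wounds of C57BL/6 mice on day 10 after wounding, and both cultures were immortalised with HPV E6/E7. WT cells carried the control guide SgNS. SG cells carried a CRISPR/Cas9 guide RNA against Prrx1, which the study's methods place in the first exon, and whether the culture grew from 1 clone is not given in the sources used here. Set beside them in places are embryonic fibroblasts (MEF, C57BL/6) and mammary tumour fibroblasts of MMTV-PyMT mice (MMTV-CAF, FVB/NJ), each also as WT and SG and immortalised likewise. Each group has 1 library, so each difference below is between 2 lists, no p-value can be given, and intervals are 95% Wilson intervals that cover counting error over genes or regions, not differences between cultures.

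H3K4me3 is deposited around the starts of genes that are transcribed or poised, mostly at CpG-rich promoters. The width of the mark varies: housekeeping genes usually carry a domain of moderate width, and genes that define a cell type often carry a broad one that reaches into the gene body. Prrx1 is a homeobox transcription factor of limb, craniofacial and skin mesenchyme. The comparison asks whether this promoter mark, and with it the marks of fibroblast identity, changed after Prrx1 was deleted.

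A region of one list was paired with a region of the other where they shared at least 1 bp. A protein-coding gene was marked where a region lay within 1000 bp of any of its annotated starts. It was called lost when only WT marked it and gained when only SG did. Genes marked in both lists were called narrowed or widened when the SG width over the WT width, divided by the median ratio of the paired regions, was at most 0.5 or at least 2. That quotient is called the scaled ratio below, and a width is the summed length of the regions at the gene in bp. Fold is the authors' enrichment over input and −log10 p their score of a region. A lost region is one that was not called in the other list, which does not show that the mark was absent, and a mark present in fewer cells cannot be told apart from a weaker mark in each cell.

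Promoters of genes to which the results return are printed here so that their base composition can be seen beside the calls. They are the 250 bases before the annotated start, 5′ to 3′ on the strand of the gene, in build NCBIM37 (mm9), with each CpG in capitals. Postn lies at chr3:54164781-54165030 and Thy1 at chr9:43851217-43851466. Ccl2 lies at chr11:81848823-81849072, Tgfbr3 (minus strand) at chr5:107718649-107718898 and Prrx1 (minus strand) at chr1:165243842-165244091.
Postn: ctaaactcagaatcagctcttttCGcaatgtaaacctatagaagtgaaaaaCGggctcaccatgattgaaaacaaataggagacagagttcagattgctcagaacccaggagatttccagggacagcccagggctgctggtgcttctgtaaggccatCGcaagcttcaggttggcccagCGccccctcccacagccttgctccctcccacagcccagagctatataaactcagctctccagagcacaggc
Thy1: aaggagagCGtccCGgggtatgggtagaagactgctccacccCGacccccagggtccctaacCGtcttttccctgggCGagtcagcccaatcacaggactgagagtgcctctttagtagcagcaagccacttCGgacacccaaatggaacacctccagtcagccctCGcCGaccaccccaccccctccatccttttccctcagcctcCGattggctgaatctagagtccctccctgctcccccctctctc
Ccl2: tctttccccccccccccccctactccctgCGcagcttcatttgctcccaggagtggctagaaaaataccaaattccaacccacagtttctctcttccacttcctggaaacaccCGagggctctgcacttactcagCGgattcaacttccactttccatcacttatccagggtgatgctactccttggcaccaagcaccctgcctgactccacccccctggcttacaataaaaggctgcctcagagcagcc
Tgfbr3: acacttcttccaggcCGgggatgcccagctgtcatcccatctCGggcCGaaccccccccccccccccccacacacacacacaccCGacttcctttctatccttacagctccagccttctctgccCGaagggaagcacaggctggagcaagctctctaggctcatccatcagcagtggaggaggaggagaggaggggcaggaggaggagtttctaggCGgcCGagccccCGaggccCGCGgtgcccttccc
Prrx1: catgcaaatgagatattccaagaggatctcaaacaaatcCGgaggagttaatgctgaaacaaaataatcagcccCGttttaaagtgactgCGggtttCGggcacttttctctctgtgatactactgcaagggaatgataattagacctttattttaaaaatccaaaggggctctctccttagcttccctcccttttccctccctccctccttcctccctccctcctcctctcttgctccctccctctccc

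These windows held 4 CpG in Postn, 9 in Thy1, 3 in Ccl2, 10 in Tgfbr3 and 4 in Prrx1. TATAAA, searched on both strands, was present in the Postn window and in none of the other 4. TAATTA, a palindrome that contains the core many homeodomains bind, was present in the Prrx1 window and in none of the other 4. Over all 22367 protein-coding genes, 13.4% of the windows from 250 bases before to 50 bases after the start held TATAAA and 4.83% held TAATTA.

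The SG list was longer, its regions scored lower and its paired regions were wider. Of the WT regions, 1279 had no SG region (7.54%, interval 7.15 to 7.95), and of the SG regions, 4514 had no WT region (23.0%, interval 22.4 to 23.6). The order turned with regions under a −log10 p of 10 removed, to 960 WT and 448 SG regions, and with lists of equal size the numbers were 1736 and 2364. The paired regions formed 14921 groups linked by overlap, 14057 of them with 1 region on each side. Their median width ratio, SG over WT, was 1.14 (quartiles 1.01 and 1.34), and 75.7% were wider in SG. The median −log10 p was 16.6 in WT and 11.4 in SG, while the median fold was 6.61 and 6.65 and the median width 1545 and 1522 bp. The lists covered 29.8 Mb in WT and 36.4 Mb in SG. The number of reads behind each list is unknown, and its part in the longer and wider SG list was not tested.

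Most promoters kept the mark. Of the 12930 genes marked in WT and the 12980 marked in SG, 12657 were marked in both, and 12237 of these kept their width within 2-fold of the median ratio. There were 273 lost genes (2.11% of those marked in WT, interval 1.88 to 2.37) and 323 gained genes (2.49% of those marked in SG, interval 2.23 to 2.77). There were 163 narrowed genes (1.29% of those marked in both) and 257 widened genes (2.03%). The balance of lost and gained genes turned with list size: with both lists cut to the same number of regions there were 421 lost and 221 gained, and with regions under a −log10 p of 10 removed there were 670 and 222. Without scaling there were 96 narrowed and 411 widened. The shares of 2.11%, 2.49%, 1.29% and 2.03% are the background against which counts within gene groups are read below.

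**Figure D1:**
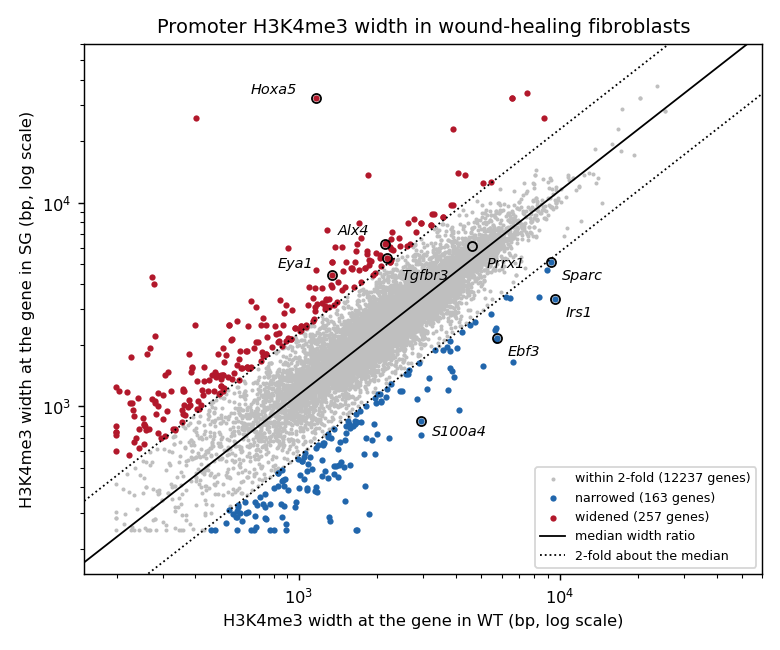
H3K4me3 width at each of 12657 protein-coding genes marked in both lists, WT on the x axis and SG on the y axis, both in bp on log scales. The cloud follows the line of the median width ratio of 1.14, 163 genes lie below the lower dotted line and 257 above the upper one, and circles mark genes named in the text.

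Prrx1 itself kept its mark. The region at its start was 4606 bp wide in WT and 6092 bp in SG, with a fold of 7.20 and 8.66 and a scaled ratio of 1.16. A small edit in an exon need not alter H3K4me3, so these values do not check the deletion. H3K27ac summits within 1000 bp of its starts numbered 0 in WT and 2 in SG. Its paralogue Prrx2 had 2153 bp in WT and 1362 bp in SG, a scaled ratio of 0.554. The 7 other transcription factors listed with Prrx1 and Col1a1 also stayed within 2-fold, from Nfix (14544 and 9984 bp) and Col1a1 (10634 and 7486 bp) to Fosl2 (11265 and 13235 bp) and Klf4 (5279 and 6766 bp).

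Lost and gained regions were weak and narrow. In the lowest quartile of −log10 p, 28.6% of WT regions had no SG region, against 1.51% in the next quartile and 0 of 4240 in each of the upper quartiles (upper Wilson bound 0.0905%). Among SG regions, 72.0% of the lowest quartile had no WT region, 18.9% of the next, 0.591% of the third and 0.428% of the highest. Regions away from genes were unpaired more often. Of WT regions with no annotated start within 1000 bp, 21.1% were unpaired against 3.36% of those at a start, and of SG regions 58.3% against 5.09%. At genes, the median width was 469 bp for lost and 584 bp for gained regions, against 2134 bp in WT for genes that stayed within 2-fold. The median −log10 p was 4.51 for lost and 4.42 for gained regions.

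**Figure D2:**
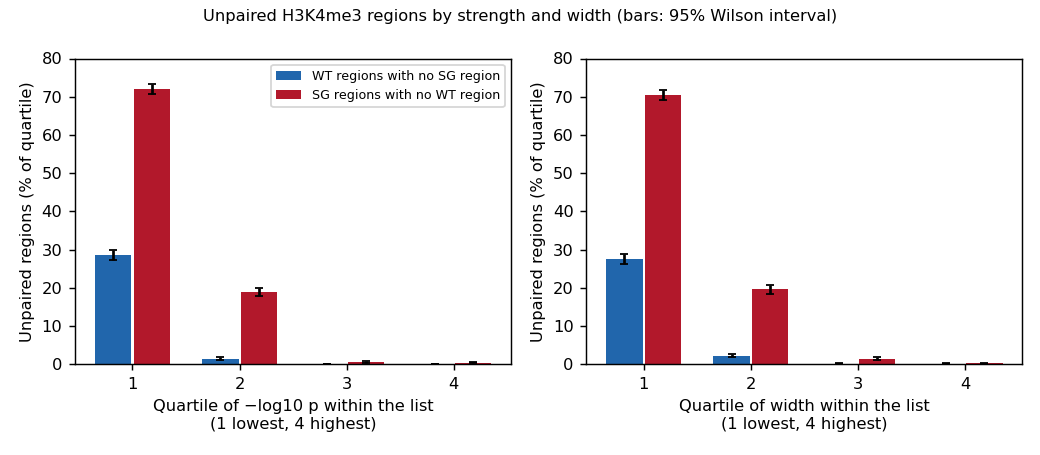
Share of regions with no partner in the other list by quartile of −log10 p (left) and of width (right) within each list, in percent, with 95% Wilson intervals. In both panels the unpaired regions fall almost wholly in the lower quartiles, from 28.6% and 72.0% in the lowest quartile of −log10 p to 0 and 0.428% in the highest.

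The 8 lost genes with the highest WT −log10 p, among those with no SG region within 5000 bp, were Slco2a1, Synpo2, Rps4y2, Aqp3, Rsph9, Xylt1, Kcnk4 and Syt6. Slco2a1, a prostaglandin transporter, carried 1394 bp in WT (fold 5.62, −log10 p 12.4; chr9:102910293-102911686, across the start of the gene). It also carried 1 H3K27ac summit in WT and 0 in SG. It was lost in MEF as well, and stayed within 2-fold in MMTV-CAF (3047 and 3746 bp). Synpo2, an actin-bundling protein of muscle, carried 495 bp (fold 5.69, −log10 p 12.4) and was lost in MEF too. Xylt1, which starts the glycosaminoglycan chains of proteoglycans, carried 1318 bp (−log10 p 8.71). Aqp3 is a water and glycerol channel and Kcnk4 a potassium channel, with 405 and 688 bp. Their −log10 p of 10.1 and 8.63 lay under the WT median of 16.6, and Aqp3 had 0 H3K27ac summits in WT and 1 in SG. Rps4y2 resembles other Rps4 copies, so its reads can be shared with them and its call is uncertain.

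The gained genes chosen in the same way included Nme5, Zfand6, H2-DMb1, Nova2, Pcdhb15, Mab21l3 and Serpinb2. H2-DMb1, which loads peptides on MHC class II, carried 513 bp in SG (−log10 p 7.56), with 0 H3K27ac summits in WT and 1 in SG. Zfand6, a zinc finger protein, carried 1034 bp with 0 and 2 summits. Nova2, a splicing factor of neurons, carried 1046 bp, and was also widened in MEF and gained in MMTV-CAF. Serpinb2, an inhibitor of plasminogen activators, carried 295 bp. Zfand6 and Pcdhb15 were marked in both MEF and MMTV-CAF of either genotype, so WT wound-healing fibroblasts were the exception there.

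The gained regions with the highest −log10 p of all fell on predicted genes in repeats and were set apart. Gm10800 and Gm10801 on chromosome 2 and Gm10722, Gm10717, Gm10718, Gm11168, Gm10715, Gm11167 and Gm10719 near the start of chromosome 9 had −log10 p of 30.3 to 125 with a fold of 4.65 to 7.48. Near-identical copies share reads at such loci, so these gains are uncertain.

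The extracellular matrix list was marked at 49 of 58 genes in WT and 47 in SG. It held 3 lost genes (6.12%, background 2.11%), 1 gained, 4 narrowed (8.70%, background 1.29%) and 3 widened (6.52%, background 2.03%), and 39 genes stayed within 2-fold. The median log2 scaled ratio of its genes marked in both was -0.05, against -0.01 over all genes. Col6a3, a chain of collagen VI, had the widest lost region of the list with 3060 bp (fold 3.93, −log10 p 6.54), and 1 H3K27ac summit in WT and 0 in SG. Mfap5, a microfibril protein, lost 867 bp, with 0 H3K27ac summits in WT and 1 in SG. Eln, which encodes elastin, was gained with 247 bp. With lists of equal size, Eln and the gained genes Csf3, Gdf10, Hgf, Lhx8 and Pdx1 of the lists below were marked in neither list.

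Sparc, a collagen-binding matricellular protein, narrowed from 9265 bp in WT to 5112 bp in SG, a scaled ratio of 0.483. The proteoglycan gene Bgn narrowed from 4522 to 2502 bp (0.484), Fbln5, which organises elastic fibres, from 2172 to 1212 bp (0.488), and Efemp1 from 1483 to 501 bp (0.296). When all regions connected by overlap were summed in each list (the linked width, a measure added after the data had been seen), Sparc (0.518) and Bgn (0.576) stayed above the limit of 0.5, since the SG list held a further piece under the WT region. The limit divides genes of nearly equal ratio, since over all genes 77 had a scaled ratio between 0.5 and 0.55 and 109 one between 1.82 and 2. Not past it were, for example, Col1a2, which went from 3446 to 1985 bp (0.504), Tagln of the contractile list from 4362 to 2564 bp (0.514) and Pdgfrb of the dermal list from 4191 to 2465 bp (0.515). Just inside it stood Ly6a (0.497) and Wnt2 (0.490). Without scaling, the width ratios of Sparc, Bgn and Fbln5 were 0.552, 0.553 and 0.558, above the limit, and 12 narrowed calls among the named genes ended, the others being Angpt1, Cx3cl1, Dlx1, En1, Foxd3, Ly6a, Mmp15, Pdgfd and Wnt2. With lists of equal size, Efemp1, Cnn1, Cspg4, Ly6a, Mmp15 and Neurod2 turned from narrowed to lost.

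In the other direction, Spp1, which encodes osteopontin, widened from 916 to 2146 bp (2.05), a call that ended when regions within 1000 bp of each other were merged (log2 scaled ratio 0.41). The collagen-modifying enzymes P4ha1 (2165 to 6350 bp) and Plod2 (2286 to 5876 bp) widened as well. In both of these a break in the WT list was bridged in SG: by linked width P4ha1 went from 3488 to 6350 bp (scaled ratio 1.59) and Plod2 from 4072 to 5876 bp (1.26), short of the limit of 2. Over all genes, 182 of the 257 widened and 138 of the 163 narrowed genes kept their call by linked width. Linked widths were computed in wound-healing fibroblasts only, and are given below wherever they end a call that is described.

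Postn, which encodes periostin of wounds and tumour stroma, was lost in each of the 3 fibroblast types. In wound-healing fibroblasts, WT held 254 bp across the start (fold 3.45, −log10 p 5.35) and 666 bp further downstream, and SG held neither. The WT width was 1929 bp in MEF and 6430 bp in MMTV-CAF, and no SG region lay within 1000 bp of a start in either. An upstream region remained in SG, 1026 bp wide and 1695 bp from the nearest start in wound-healing fibroblasts and 875 bp wide and 1965 bp away in MMTV-CAF, so that within 2500 bp the wound gene was marked in both lists. A PRRX1 summit of the WT cells lay within 1000 bp of a Postn start.

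S100a4, also called FSP1 and used as a fibroblast marker, was called narrowed in each of the 3 types. It went from 2929 to 844 bp in wound-healing fibroblasts (scaled ratio 0.252), from 2113 to 353 bp in MEF and from 7807 to 3918 bp in MMTV-CAF. The MMTV-CAF call rests on the window of 1000 bp. A further SG region of 2313 bp lay under the same WT region, 1082 bp from the nearest start. With that region counted, the MMTV-CAF width would stay within 2-fold. S100a4 too had a PRRX1 summit within 1000 bp of a start. Of the 273 lost genes, 4 were lost in all 3 types: Postn, Insrr, Ramp1 and Uncx. Of 436 lost or narrowed genes, 18 were lost or narrowed in all 3, and 2 of these (Postn and S100a4) had a PRRX1 summit, a share near the 10.9% of genes that stayed within 2-fold. Of 580 gained or widened genes, 6 moved that way in all 3, among them Gata4 and Nova2. For scale, MEF had 427 lost and 200 narrowed genes against 84 gained and 35 widened. MMTV-CAF had 334 and 240 against 459 and 325. How many genes would be shared by unrelated types was not computed, so the shared counts are not read as an excess. Insrr, Ramp1, Uncx and the counts shared by all 3 types were singled out after the values had been seen.

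The dermal and mesenchymal list was marked at 45 of 50 genes in WT. It held 1 lost gene (2.22%, background 2.11%), 0 gained, 5 narrowed (11.4%, background 1.29%) and 1 widened (2.27%, background 2.03%), with a median log2 scaled ratio of -0.01, equal to that of all genes at this rounding. Thy1, the surface glycoprotein CD90, lost 1264 bp (fold 4.51, −log10 p 8.20; chr9:43851450-43852713, from before the start into the gene). It went from 2580 to 1219 bp in MEF, just within 2-fold after scaling by the MEF median ratio of 0.928, and was lost in MMTV-CAF. Besides S100a4, narrowing was seen at Ebf3 (5762 to 2170 bp, 0.330), Ebf2 (3795 to 1548 bp, 0.357), En1 (6232 to 3440 bp, 0.483) and Ly6a (2016 to 1145 bp, 0.497). Ebf2 and Ebf3 encode transcription factors of mesenchymal and other lineages, En1 marks a dorsal dermal fibroblast lineage and Ly6a encodes the surface protein Sca-1. By linked width Ebf3 went from 5762 to 4197 bp (0.637), and without scaling En1 and Ly6a stayed within 2-fold, so that Ebf2 and S100a4 were the 2 narrowed genes kept by both. Cd34, a marker of stromal progenitors, widened from 1334 to 3844 bp (2.52), with 0 H3K27ac summits in WT and 1 in SG.

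Of the other mesenchymal genes of this list, 38 stayed within 2-fold. As examples, Pdgfra had 4383 and 5215 bp, Vim 7421 and 7189 bp and Twist1 6726 and 5503 bp. Markers of other cell types were marked at few genes in WT: 10 of 24 keratinocyte, 8 of 20 endothelial and 1 of 26 immune genes, with Krt5, Krt14, Pecam1, Cdh5 and Ptprc at 0 in both lists. Of the keratinocyte genes, Krt18 and Dsp were lost and Ovol1 narrowed. Of 14 genes each, 6 glial and melanocyte markers (Foxd3 narrowed) and 8 adipocyte markers (Plin4 lost) were marked, and of 12 muscle genes 2. The endothelial, immune and muscle genes marked in both lists stayed within 2-fold.

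Contractile genes were lost at 2 of 30 marked genes (6.67%, background 2.11%), Synpo2 and Myh11 (451 bp), and Cnn1 narrowed from 1124 to 490 bp (0.381). Cnn1 encodes calponin and Myh11 smooth muscle myosin. The gene of smooth muscle actin, Acta2, kept 2288 bp in WT and 2028 bp in SG (0.776). The pericyte and smooth muscle markers, which share these genes, were marked at 8 of 13 genes in WT, with 2 lost and 2 narrowed. The second narrowed gene was Cspg4, a pericyte proteoglycan, which went from 2930 to 726 bp (0.217) and from 2 H3K27ac summits in WT to 0 in SG.

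**Figure D3:**
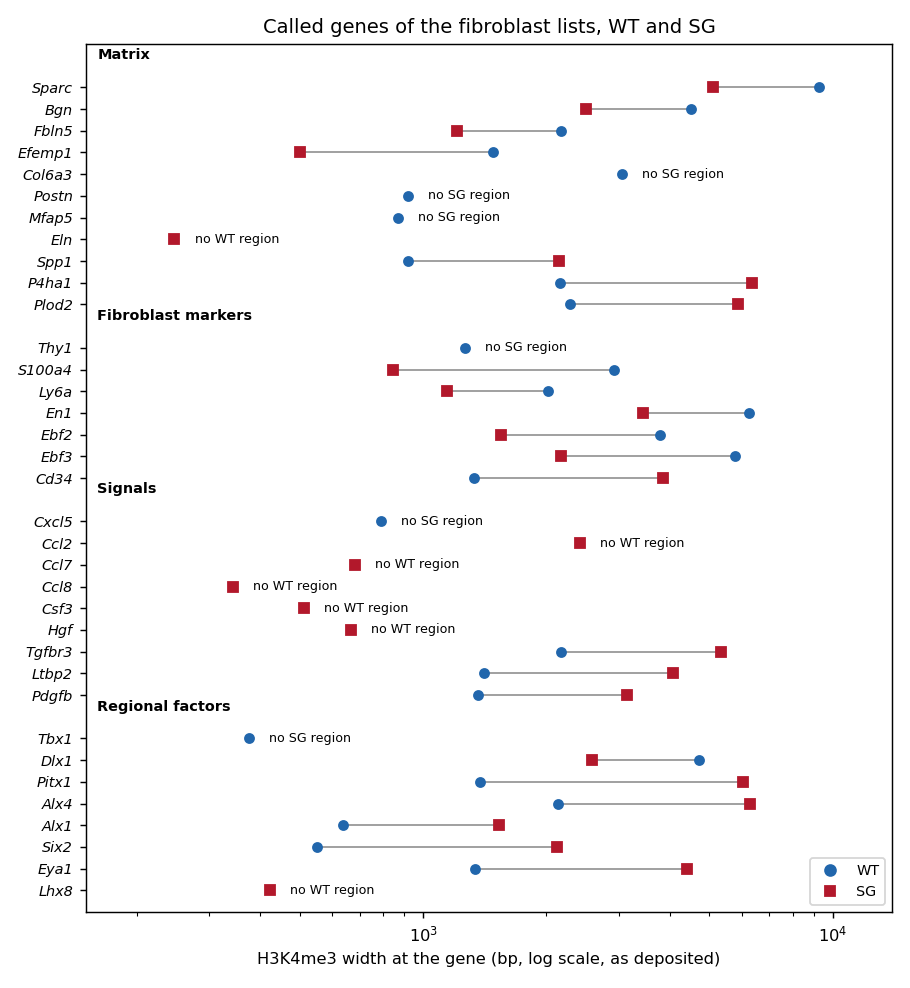
H3K4me3 width in WT (circles) and SG (squares) at called genes of the matrix, fibroblast marker, signalling and regional factor lists, in bp on a log scale as deposited, without the scaling by 1.14. The fibroblast markers lie to the left in SG except Cd34 and Thy1, which has no SG region, and the regional factors shown lie to the right except Dlx1, while Tbx1 is marked in WT alone and Lhx8 in SG alone.

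Cytokines and chemokines included 4 gained genes, 3 of them at a single chemokine locus. Of 36 genes, 18 were marked in WT and 21 in SG, with 1 lost, 4 gained (4 of 21, background 2.49%), 1 narrowed and 0 widened, and a median log2 scaled ratio of 0.25 over the 17 marked in both. Ccl2, a chemokine that recruits monocytes, gained 2418 bp across its start (fold 3.77, −log10 p 4.70), and H3K27ac summits there numbered 1 in WT and 2 in SG. Its neighbours on chromosome 11, Ccl7 (681 bp) and Ccl8 (343 bp), were gained as well, so these 3 genes share a locus and are not independent. Csf3, the granulocyte colony-stimulating factor, gained 511 bp. Cxcl5, which attracts neutrophils, lost 789 bp while its H3K27ac summits numbered 1 in WT and 2 in SG, and Cx3cl1 narrowed from 1669 to 839 bp (0.440). In MEF, Ccl2 and Ccl7 were lost instead, from 1321 and 919 bp in WT. The 5 regions gained or lost here had −log10 p of 3.83 to 5.99, which is near the bottom of either list.

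TGF-beta genes were marked at 37 of 38 in both lists, with 0 lost, 0 gained, 0 narrowed and 2 widened (5.41%, background 2.03%). Tgfbr3, the co-receptor betaglycan, widened from 2168 to 5326 bp (2.15), with a fold of 11.9 in WT, the highest WT fold among the called genes of these lists, and 9.47 in SG, and each alternative way of calling kept it. Ltbp2, which binds latent TGF-beta-family complexes and fibrillin, widened from 1406 to 4082 bp (2.54), and by linked width from 2340 bp (1.53). The activin gene Inhba went from 4272 to 9151 bp (1.87), under the limit.

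BMP genes were marked at 21 of 27 in WT, with 2 lost (Bmp7, 371 bp, and the antagonist Chrdl1, 237 bp), 1 gained (Gdf10, 247 bp) and 1 narrowed. The narrowed gene was the ligand Bmp2, from 1855 to 295 bp (0.139). Wnt genes had 0 lost of 36, 1 gained, 2 narrowed and 2 widened. The gained gene was Rspo1, a secreted enhancer of Wnt signals (803 bp). The ligand Wnt2 (1951 to 1093 bp) and the intracellular antagonist Nkd2 (894 to 247 bp) narrowed, while the ligands Wnt10b (376 to 986 bp) and Wnt16 (364 to 910 bp) widened, but Wnt10b had a log2 scaled ratio of -0.59 with lists of equal size. Growth factors and receptors had 0 lost of 36. Hgf, the hepatocyte growth factor, was gained with 667 bp, Angpt1 (2067 to 1062 bp) and Pdgfd (1296 to 709 bp; log2 scaled ratio -0.13 with regions within 1000 bp merged) narrowed, and Pdgfb widened from 1359 to 3144 bp (2.02), or from 2064 bp by linked width (1.33). Matrix proteases and their inhibitors kept 29 of 30 genes within 2-fold, the exception being Mmp15, from 1563 to 786 bp (0.440).

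Regional transcription factors, which hold the positional identity of fibroblasts, included widened genes of craniofacial and limb programmes. Of 40 genes marked in both lists, 5 widened (12.5%, background 2.03%) and 2 narrowed (5%, background 1.29%), and 1 of 41 was lost and 1 of 41 gained. Eya1, a co-activator of homeobox factors, widened from 1339 to 4404 bp (2.88), and Six2 from 551 to 2127 bp (3.38). The aristaless-like homeobox genes Alx1 (636 to 1534 bp, 2.11) and Alx4 (2129 to 6286 bp, 2.58) and the hindlimb factor Pitx1 (1378 to 6046 bp, 3.84) widened too. By linked width Alx4 (1.48) and Pitx1 (1.15) stayed within 2-fold, and Alx4 turned to lost with regions under a −log10 p of 10 removed. Dlx1 narrowed from 4719 to 2590 bp (0.480; 0.570 by linked width), Tbx1 lost 375 bp and Lhx8 gained 423 bp.

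Among Hox genes, which encode position along the body axis, 33 of 39 were marked in WT and 36 in SG. There were 3 gained (8.33%, background 2.49%), 6 widened (18.2%, background 2.03%) and 2 narrowed (6.06%, background 1.29%). In SG, a single region of 32735 bp (fold 9.81, chr6:52152730-52185464) covered the starts of Hoxa5, Hoxa6, Hoxa7, Hoxa9 and Hoxa10 and 1 start of Hoxa3. In WT, the same stretch was broken into regions of 1161, 1099, 6549 and 20288 bp. Hoxa3, Hoxa5 and Hoxa6 were called widened for this reason, and by linked width the stretch went from 29097 to 32735 bp, a scaled ratio of 0.984. Hoxc8 was of the same kind, with 3906 bp in WT inside a region of 23081 bp in SG and a linked scaled ratio of 0.977. Hoxc5 was called narrowed at 1000 bp, from 5697 to 2103 bp, and had a scaled ratio of 0.969 by linked width. Its call turned to widened with a window of 2500 bp and to gained where the region had to cover the start.

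HoxB had the largest rise in coverage of the 4 clusters. Between 5000 bp before and 5000 bp after its genes from Hoxb1 to Hoxb9, regions covered 31.8% of 106800 bp in WT and 51.0% in SG. A single SG region of 26036 bp (fold 6.72, chr11:96151760-96177795) reached across Hoxb5 and Hoxb6 to within 1000 bp of the Hoxb4 start, where WT had 13757 bp in pieces, a linked scaled ratio of 1.66. Coverage went from 40.6% to 50.1% in HoxA, from 48.3% to 52.8% in HoxC and from 13.5% to 13.8% in HoxD. These shares are not scaled, and the whole list went from 29.8 to 36.4 Mb, so that HoxC and HoxD rose by less than the list and HoxA by about as much. In HoxA, Hoxa11 gained a separate region of 2391 bp (fold 4.64) with 0 H3K27ac summits in WT and 2 in SG. H3K27ac summits in the same spans numbered 30 in WT and 26 in SG in HoxA, 38 and 20 in HoxB and 26 and 12 in HoxC, against 5 and 8 in HoxD. The total number of summits in each H3K27ac list was not set beside these counts, so they have no list-wide background. In MMTV-CAF, HoxB coverage was 36.1% in WT and 39.3% in SG, and in MEF 31.2% and 25.1%.

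**Figure D4:**
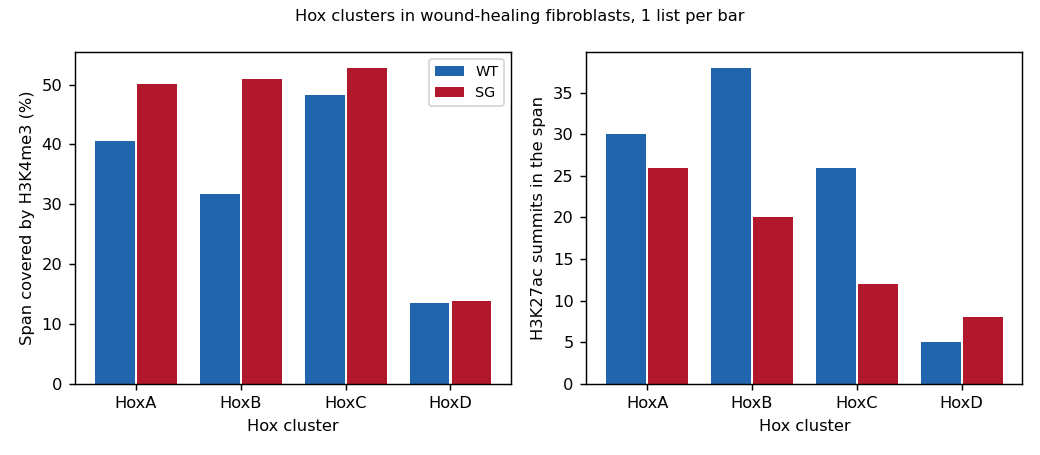
Percent of each Hox cluster covered by H3K4me3 regions (left) and number of H3K27ac summits in the same span (right) in WT and SG wound-healing fibroblasts, 1 list per bar. HoxB shows the largest rise in coverage of the 4, from 31.8% to 51.0%, and its H3K27ac summits go from 38 to 20, counts without a list-wide background.

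The most extreme widened genes with at least 3000 bp in their wider list were, besides Hox genes, Fam166a (272 to 4325 bp), Tmc4 (279 to 3961 bp) and Rhof (1845 to 13719 bp). Each had a second WT region beside the small one, and their linked scaled ratios were 1.28, 1.34 and 0.953. The most extreme narrowed genes were C1qtnf5, Ankrd13b, Nrp2, Sfi1, Irs1 and Polrmt. Nrp2, a co-receptor of semaphorins and VEGF, went from 5104 to 1580 bp (0.271), and Irs1, the insulin receptor substrate, from 9564 to 3364 bp (0.308). By linked width, Nrp2 (0.667), Irs1 (0.825), Ankrd13b (0.753) and C1qtnf5 (0.563) stayed within 2-fold, since a break had opened in the SG region. Polrmt, the mitochondrial RNA polymerase, kept its call by both measures (3934 to 1388 bp, 0.309), but its widest WT region was 2415 bp, and by that width it was within 2-fold. Sfi1 had 5 WT regions with a fold of 1.86 over a gene with many near copies, and is uncertain.

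Regulators of other tissues were marked at 28 of 58 genes in WT. There were 2 lost (Nkx2-5, Lhx5), 3 gained (10.3%, background 2.49%), 2 narrowed (Neurod2, Foxd3) and 2 widened. Wt1, a regulator of mesothelium and kidney, gained 1836 bp (fold 4.19), Foxa2 of endoderm gained 1125 bp and Pdx1 of pancreas 399 bp. Gata4 of heart and endoderm widened from 752 to 2196 bp (2.56), with 0 H3K27ac summits in WT and 2 in SG and a PRRX1 summit in WT, and it was gained in MEF and in MMTV-CAF. Pax5 widened from 839 to 2102 bp.

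Several groups had few called genes or none. All 40 marked immediate-early, AP-1 and Kruppel-like genes and all 40 marked cell cycle and p53 genes stayed within 2-fold in both lists, as did 81 of 82 ribosomal protein genes, the exception being the uncertain Rps4y2. Of 40 genes for H3K4 methylation and polycomb proteins, 38 stayed within 2-fold. Kdm6b, an H3K27 demethylase, was called gained with 6470 bp because an existing region, 5051 bp by linked width, came within 1000 bp of a start. Kdm5d on Y widened from 288 to 1168 bp. Of the other Y genes, Eif2s3y widened from 204 to 1187 bp, a call that turned to lost with lists of equal size, and Ddx3y lost 434 bp. Among imprinted genes, Ascl2 (964 bp) and Ddc (603 bp) were gained and Dio3 narrowed from 1430 to 516 bp.

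Edges were compared at genes with 1 region in each list across the start. Among 109 such widened genes, whose WT regions reached a median of 272 bp upstream and 840 bp downstream, the median SG edge lay 420 bp further out upstream and 1044 bp further out downstream, and 61.5% extended more downstream (interval 52.1 to 70.1), a range that takes in the 54.1% of all 10005 genes of this kind. Among 63 such narrowed genes the median change of the edges was -100 bp upstream and -606 bp downstream. Their WT regions reached a median of 348 bp upstream and 1313 bp downstream. The downstream edge moved further out, or less far in, than the upstream edge at 17.5% of them (interval 10.0 to 28.6). That range lies below the 54.1% of all genes of this kind. Among the 9833 genes within 2-fold, the median extension was 89 bp upstream and 126 bp downstream. Of the 12657 genes marked in both lists, those with a widest region over 4000 bp numbered 1101 in WT and 1939 in SG as deposited. After scaling they numbered 1269 in SG, with a region that spans several genes counted at each. With SG scaled, 847 were broad in both, 254 in WT alone and 422 in SG alone.

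Other readouts from the same cells differed between the classes. Gained genes had an H3K27ac summit within 1000 bp of a start in 9.29% of cases in WT (interval 6.58 to 12.9) and in 23.8% in SG (19.5 to 28.8). Widened genes went from 50.6% (44.5 to 56.6) to 65.0% (59.0 to 70.6). Narrowed genes went from 42.9% (35.6 to 50.6) to 35.0% (28.1 to 42.6) and lost genes from 8.06% to 6.96%, with intervals that overlap in both cases. Genes within 2-fold went from 84.6% to 87.6%, so that the share of genes with a summit was higher in SG there too. A summit in SG alone was seen at 15.2% of gained and 17.5% of widened genes against 4.97% of genes within 2-fold. Only a gene without a WT summit can have one in SG alone. A WT summit was present at 84.6% of genes within 2-fold, against 9.29% of gained and 50.6% of widened genes. The shares for SG alone therefore do not compare how often a summit appeared. A summit in WT alone was seen at 10.4% of narrowed against 1.95% of genes within 2-fold. H3K27ac was measured in separate libraries of the same cultures, again 1 per genotype.

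PRRX1 summits of WT cells lay at 1.10% of lost genes (interval 0.374 to 3.18), 3.10% of gained (1.69 to 5.60), 5.52% of narrowed (2.93 to 10.2) and at 18 of 257 widened genes (interval 4.48% to 10.8%), against 10.9% of genes within 2-fold (10.3 to 11.4), an interval that overlaps that of widened genes and not those of the other 3 classes. The share with an H3K27ac summit in WT ran in the same order over these classes, from 8.06% of lost genes to 84.6% of genes within 2-fold. At genes marked in neither list, PRRX1 summits lay at 0.230%. The part of promoter strength in the PRRX1 shares was not tested. Of the 10 gained genes with a PRRX1 summit, Gm10717, Gm10718, Gm10722, Gm10800, Gm10801 and Gm11168 are the repeat genes named above. Besides Postn, S100a4 and Gata4, the called list genes with a PRRX1 summit were Fbln5, Hoxc5, P4ha1 and Spp1.

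**Figure D5:**
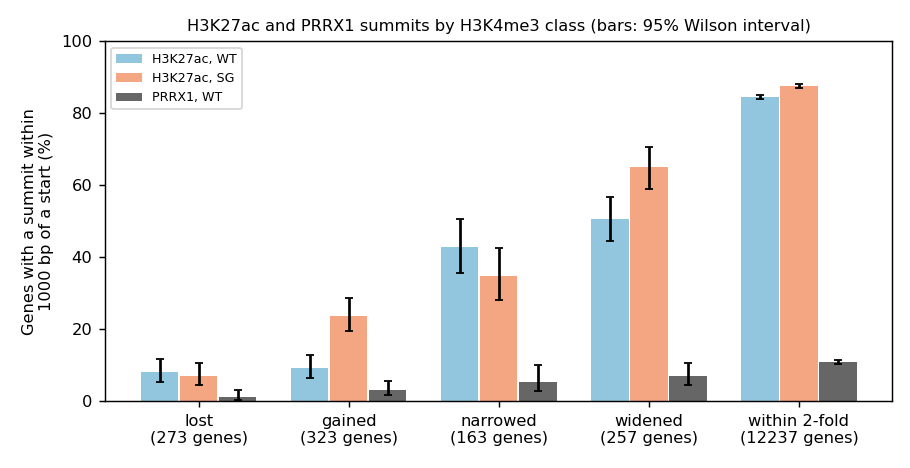
Percent of genes with an H3K27ac summit (WT and SG) or a PRRX1 summit (WT) within 1000 bp of a start, by H3K4me3 class, with 95% Wilson intervals. H3K27ac rises from 9.29% to 23.8% at gained and from 50.6% to 65.0% at widened genes. PRRX1 summits are most frequent, at 10.9%, where H3K4me3 stayed within 2-fold, the class in which H3K27ac is most frequent too.

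The promoters of the classes also differed in sequence, which the calls did not use. The median number of CpG in the 300 bases around the start was 13 at lost, 8 at gained, 17 at narrowed and 13 at widened genes, against 21 at genes within 2-fold and 3 at genes marked in neither list. TATAAA was found at 13.2% of lost, 12.1% of gained and 12.8% of widened genes against 6.56% of genes within 2-fold, while the 7.98% of narrowed genes (interval 4.72 to 13.2) took in that value. TAATTA, at 2.72% to 4.03% of the called classes against 2.30%, had intervals that overlap in each class.

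Genes called here were called more often in the other fibroblasts than genes that stayed within 2-fold, in both directions. In MEF, 15.4% of the lost and 11.1% of the gained genes were lost, against 1.99% of genes within 2-fold. Those gained in MEF were 2.20%, 1.86% and 0.368%. In MMTV-CAF, 7.69% of the lost and 6.19% of the gained genes were lost, and 9.52% and 11.1% were gained, against 1.36% lost and 1.29% gained among genes within 2-fold. Of the wound genes gained or widened, 80 were lost or narrowed in MEF and 14 gained or widened, and in MMTV-CAF the numbers were 52 and 88. Of those lost or narrowed, 94 moved the same way in MEF and 20 the opposite way, and in MMTV-CAF 49 and 66. Over all genes, lost and narrowed calls outnumbered gained and widened ones in MEF, and the reverse held in MMTV-CAF. Each of these splits has that same order, so none is read as agreement or opposition between the types.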

How the data were processed

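Chromatin immunoprecipitation with an antibody against H3K4me3 (Abcam) was sequenced in paired ends on a HiSeq 2500. Per the labels and the study's methods, the authors used Trimmomatic for trimming, Bowtie for alignment to mm9 and Picard for duplicates, and ran MACS2 in broad mode with the input of the same cells as control. The deposited lists hold coordinates, the authors' fold enrichment over input and the authors' −log10 p. The H3K27ac and PRRX1 files hold summits of 1 bp with the −log10 p that the authors deposited. The lists carry no read counts, so depth is unknown.

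Lists were read with python 3.11.15, numpy 2.4.6 and pandas 2.3.3, intervals were computed with scipy 1.17.1 and figures drawn with matplotlib 3.10.9. Regions sharing at least 1 bp were linked into groups, and widths were divided by the median ratio of the groups. Gene starts came from the annotation of NCBIM37, the same assembly, with a window of 1000 bp and 22367 protein-coding genes. No region lay beyond a chromosome end. The calling steps were tested on a simulated SG list in which isolated regions were removed, narrowed or widened. That test did not examine calls that rest on broken or bridged regions. Each group has 1 library, so no test between groups was made.

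Named genes, leaving out predicted and clone names, were the 8 lost and 8 gained genes with the highest −log10 p and no region of the other list within 5000 bp, the 6 narrowed and 6 widened genes with the most extreme ratio and at least 3000 bp in the wider list, Prrx1, the factors listed with it, and called members of the gene lists. Some genes that this rule names are not reported here. The comparison and the lists were chosen with earlier results of these data known. Alternatives changed the −log10 p limit, list size, overlap, merging of gaps, window, gene set, width limit, scaling and width measure. The linked width was added after the data had been seen.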

Additional observations from a re-analysis of the deposited data

Results flagged for a closer look

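The wound lists and the MEF lists differed in opposite directions between SG and WT in 3 summary values, and these differences were not tested, since each group has 1 library. The median width ratio, SG over WT, was 1.14 in wound-healing fibroblasts and 0.928 in MEF. Gained minus lost genes came to 50 in wound-healing fibroblasts and -343 in MEF, and widened minus narrowed genes to 94 and -165. The wound sign of gained minus lost rests on the deposited lists: with lists of equal size there were 221 gained and 421 lost genes, and with regions under a −log10 p of 10 removed 222 and 670, the direction seen in MEF. MMTV-CAF went with the wound lists in these values as deposited, with a median width ratio of 1.01, 459 gained and 334 lost genes, and 325 widened and 240 narrowed genes.

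Single genes were also called in opposite directions, again untested. The change in width, SG minus WT, is given in bp for wound-healing fibroblasts and then for MEF. Among signalling and matrix genes it was 2418 and -1321 at Ccl2, 681 and -919 at Ccl7, 667 and -900 at Hgf, 1785 and -1481 at Pdgfb, 1230 and -1413 at Spp1 and 247 and -825 at Eln. Among regulators it was 6470 and -6023 at Kdm6b, 2391 and -655 at Hoxa11, 1576 and -594 at Six2, 1125 and -993 at Foxa2, 1263 and -295 at Pax5 and -1053 and 728 at Neurod2. At Eif2s3y it was 983 and -420, at Nme5 779 and -398, and at Ankrd13b -4989 and 4450. By linked width the wound changes stayed within 2-fold at Kdm6b (5051 to 6470 bp), Pdgfb (scaled ratio 1.33) and Ankrd13b (0.753). Eif2s3y was lost in wound-healing fibroblasts with lists of equal size, and Hgf and Eln were marked in neither list. Spp1 stayed within 2-fold with regions within 1000 bp merged.

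Set against MMTV-CAF, with the wound value again given before the other, the change was 26036 and -2592 bp at Hoxb4, 25632 and -11535 at Hoxb5 and -766 and 965 at Hoxd11. At Plod2 it was 3590 and -4487, at Ddc 603 and -967, at Dio3 -914 and 3731, at Nme5 779 and -479, and at Syt6 -368 and 2370. By linked width Hoxb4 and Hoxb5 share a stretch of 13757 bp in WT and 26036 bp in SG (scaled ratio 1.66), and Plod2 had a scaled ratio of 1.26, so that these wound changes also stayed within 2-fold. Opposite moves of this kind also occurred over all genes, with 80 genes that were gained or widened here and lost or narrowed in MEF, and 52 in MMTV-CAF. In the reverse sense there were 20 in MEF and 66 in MMTV-CAF, and these numbers follow the order of the totals of each type.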

How the results depend on the processing

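Of 47 summary values recomputed under the alternatives, 33 stayed within the limits set for them and 14 moved. A change of direction was defined only for the median width ratio, where none occurred. For the counts, the order of lost and gained genes and of unpaired WT and SG regions turned in some settings, as given above. The median width ratio was 1.14 in groups of 1 region per list and 1.13 with regions under a −log10 p of 10 removed. That removal also left 448 SG regions without a WT region, 670 lost, 53 narrowed and 104 widened genes. With lists of equal size there were 2364 SG regions without a WT region and 421 lost genes. With all annotated genes, 486 were gained, and where the region had to cover the start, 108 were narrowed. A limit of 1.5-fold gave 525 narrowed and 801 widened genes, and no scaling gave 96 and 411. Gained genes numbered 222 after the removal and 221 with equal lists, fewer than the lost ones in both cases, whereas the deposited lists gave 323 gained and 273 lost.

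For 110 named genes, 1024 single values were recomputed, of which 937 stayed within the same call or size, 76 moved and 11 changed sign on the log2 scale of the scaled ratio. These values leave out cases in which a setting gave no width in a list, so calls were counted too. Of 109 called genes, 27 kept the call and 71 were in neither list with regions under a −log10 p of 10 removed, 95 kept it with lists of equal size, 65 where the region had to cover the start, 87 with gaps merged, 88 with the window of 2500 bp and 97 without scaling. Merging also ended the calls of Spp1, Pdgfd, Foxd3 and Hoxd11, which linked width kept. By linked width, 35 of 60 narrowed or widened genes kept it. Calls turned to the opposite direction at Alx4 (lost, with weak regions removed), Eif2s3y (lost, equal lists), Foxd3 and Hoxc5 (gained, region covering the start) and Hoxc5 (widened, 2500 bp). Wnt10b came to -0.59 with lists of equal size. With regions within 1000 bp merged, Pitx1 came to -0.12, Rhof to -0.17 and Plod2 to -0.0553. With a window of 2500 bp, Hoxc5 came to 1.95 and Rhof to -0.0696. By linked width, chosen after the data had been seen, Hoxc8 came to -0.0338, Rhof to -0.0696 and Hoxa3, Hoxa5 and Hoxa6 to -0.0226. The last of these alternatives and the merging sum pieces that the WT list holds apart, and the cause of the other moves was not tested. No paired analysis was possible because each group has 1 library and the labels give no replicate numbers, and for the same reason no library could be left out. Depth is unknown and limits the reading of any region that one list lacks.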

Other observations

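Lost and gained genes were spread over the chromosomes. Among autosomes and X, the share of WT-marked genes that were lost ran from 0.718% on chromosome 4 to 3.47% on chromosome 15, and the share of SG-marked genes that were gained from 0.996% on chromosome 8 to 4.17% on chromosome 9, which holds the predicted repeat genes near its start. On Y, 4 regions were called in WT and 5 in SG.

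The 18 genes lost or narrowed in all 3 fibroblast types, named after their values had been seen, were Ccdc3, Crispld2, Cyp26a1, Daam2, Grin1, Insrr, Pdgfd, Pgbd1, Postn, Ptn, Ramp1, S100a4, Srpx2, Sulf1, Syt13, Tnfrsf11b, Uncx and Wnt2. Without scaling, Pdgfd and Wnt2 stayed within 2-fold in wound-healing fibroblasts, as did Pdgfd with regions within 1000 bp merged. The call of S100a4 in MMTV-CAF rests on the window of 1000 bp, as given above. The 6 genes gained or widened in all 3 were Drd4, Frmd4b, Gata4, Jakmip3, Nova2 and Sp6.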
